A study of Homo sapiens with 40 samples.

Results

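BT474 is a breast ductal carcinoma line that overexpresses HER2, the receptor kinase encoded by ERBB2, and that is sensitive to the antibody trastuzumab. BT474R is a resistant clone raised from BT474 by growth in trastuzumab, so every BT474R value below comes from 1 clone. Both lines were serum starved and then given heregulin (HRG), which binds HER3 and HER4, for 12 h, and open chromatin was mapped by ATAC-seq in 2 libraries of each line (HRG-BT474R and HRG-BT474). The other libraries used here came from the same lines after starvation alone (baseline, 0 h) and after water (the vehicle control) or epidermal growth factor (EGF) for 1, 12 and 24 h or HRG for 1 and 24 h, again with 2 libraries of each line per condition. The peaks of the 4 HRG 12 h lists, merged where they overlapped by 1 bp or more on chromosomes 1 to 22 and X, gave 60913 regions. A region was called BT474R-only when both HRG-BT474R lists and neither HRG-BT474 list had a peak there, and BT474-only in the reverse case. These rules chose 3714 BT474R-only and 11537 BT474-only regions, 15251 members in all. All 40 lists of the series together gave 71600 regions found in 2 or more lists.

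In ATAC-seq a transposase cuts DNA that is not wrapped tightly in nucleosomes, so a peak marks a promoter, an enhancer or an insulator that is accessible in many cells of the culture. Heregulin binds HER3 or HER4, and the bound receptor pairs with HER2 and signals through the PI3K-AKT and RAS-ERK pathways. ERK signalling raises the FOS and JUN proteins, which pair as AP-1 and bind a short palindromic motif, mostly at enhancers. A bulk assay cannot tell fewer cells with an open region from less opening in each cell.

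The sequences below are the 201 bases around the summit of 8 members, read from the plus strand of GRCh38. They were taken from introns or from between genes, and in each set the member with the highest peak score rank within its own list was used. The first pair shows the highest-ranking members that already differed between the lines at baseline. The BT474R-only one lies 8.72 kb from a start of ARHGEF4, at chr2:130828094-130828294, and the BT474-only one lies in an intron, 152 kb from a start of TSHZ2, a zinc finger factor, at chr20:53336984-53337184.
ARHGEF4: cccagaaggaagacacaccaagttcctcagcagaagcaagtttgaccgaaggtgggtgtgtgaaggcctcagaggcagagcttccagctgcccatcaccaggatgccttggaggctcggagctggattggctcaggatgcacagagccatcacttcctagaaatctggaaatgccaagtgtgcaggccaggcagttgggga
TSHZ2: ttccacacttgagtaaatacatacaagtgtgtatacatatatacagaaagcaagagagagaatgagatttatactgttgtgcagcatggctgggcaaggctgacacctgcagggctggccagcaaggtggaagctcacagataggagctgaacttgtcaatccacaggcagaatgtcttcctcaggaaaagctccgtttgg
The next 4 sequences had no peak in either line at baseline or in the 12 h vehicle lists of the line that held them, and are shown for their AP-1 motif TGANTCA, which is in capitals. The members nearest MAP3K7 (chr6:91697355-91697555, 1110 kb away) and RTL6 (chr22:44411765-44411965, 86.4 kb away) were BT474R-only, and those nearest SLC4A11 (chr20:3236035-3236235, in an intron) and UPP1 (chr7:48085024-48085224, 3.50 kb from a start) were BT474-only. The BT474R-only pair held 1 AP-1 match each and the BT474-only pair held 2 each. Outside the HRG 12 h and baseline lists the region nearest SLC4A11 was open in 2 of 16 BT474R and 9 of 16 BT474 libraries. It did not pass the test described below (adjusted exact p = 0.0775), while the other 3 did. The 16 libraries include the 12 h vehicle ones, which had no peak in the own line by choice.
MAP3K7: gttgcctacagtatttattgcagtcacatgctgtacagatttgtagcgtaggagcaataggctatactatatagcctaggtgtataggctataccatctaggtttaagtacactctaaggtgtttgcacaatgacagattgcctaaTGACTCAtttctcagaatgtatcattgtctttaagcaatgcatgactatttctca
RTL6: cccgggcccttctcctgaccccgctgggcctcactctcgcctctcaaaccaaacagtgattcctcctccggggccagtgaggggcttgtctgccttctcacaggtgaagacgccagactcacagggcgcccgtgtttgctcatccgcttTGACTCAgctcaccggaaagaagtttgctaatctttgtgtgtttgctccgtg
SLC4A11: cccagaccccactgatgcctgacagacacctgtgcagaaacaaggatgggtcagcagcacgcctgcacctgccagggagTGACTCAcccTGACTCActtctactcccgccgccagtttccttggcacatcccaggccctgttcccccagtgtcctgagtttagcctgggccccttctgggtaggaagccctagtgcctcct
UPP1: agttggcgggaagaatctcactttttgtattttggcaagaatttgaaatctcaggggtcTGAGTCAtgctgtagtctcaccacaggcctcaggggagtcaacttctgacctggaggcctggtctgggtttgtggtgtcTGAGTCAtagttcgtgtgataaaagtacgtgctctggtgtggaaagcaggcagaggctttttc
The last pair shows a BT474R-only region in an intron of EGFR (chr7:55129764-55129964), with its AP-1 match in capitals, and the highest-ranking BT474-only region with a match to the CTCF motif (chr9:122463880-122464080, in an intron, 13.9 kb from a start of OR1J1), with that match in capitals. CTCF is the insulator protein that anchors chromatin loops.
EGFR: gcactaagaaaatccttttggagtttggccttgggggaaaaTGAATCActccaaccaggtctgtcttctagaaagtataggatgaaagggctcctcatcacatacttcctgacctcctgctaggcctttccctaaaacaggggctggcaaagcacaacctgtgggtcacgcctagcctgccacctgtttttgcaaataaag
OR1J1: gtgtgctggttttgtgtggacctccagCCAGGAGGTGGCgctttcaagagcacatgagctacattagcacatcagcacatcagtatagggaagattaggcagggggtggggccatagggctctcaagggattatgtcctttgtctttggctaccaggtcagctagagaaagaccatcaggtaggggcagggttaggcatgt

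The HRG-BT474R lists held 45808 and 42604 peaks and the HRG-BT474 lists 53484 and 52986. The lists of a line overlapped more with each other than with those of the other line. The 2 HRG-BT474R lists shared 84.4% of their joint length and the HRG-BT474 lists 85.8%, whereas the 4 pairs across lines shared between 60.8% and 63.1%. No pair of lists was identical. Of the merged regions, 35146 (57.7%) were open in all 4 lists, and the rest that were not members were open in a single list or in other mixed patterns. The BT474R vehicle and EGF libraries at 12 h held the fewest peaks of the series, with 32479 and 40331 after vehicle and 38205 and 37476 after EGF, against 49386 to 56846 in the same BT474 groups. Sequencing depth is unknown from peak lists, and the number of peaks differs between the lines in the same direction as the number of members. All 14 luminal epithelial marker genes, among them EPCAM, KRT8, KRT18, GATA3 and ERBB2, had a peak within 1 kb of a start in each of the 4 lists. Of 16 markers of immune, stromal, endothelial and basal cells, 4 and 5 had such a peak in the HRG-BT474R lists and 7 in each HRG-BT474 list. CD68, COL1A1, CDH5 and KRT5 had one in all 4 lists, and 9, among them PTPRC, CD3E, LYZ, PECAM1 and VWF, had none in any list. PDGFRB and ACTA2 had one in both HRG-BT474 lists alone, and the part of other cells in the members was not tested.

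After 12 h of HRG, BT474-only regions outnumbered BT474R-only regions in the deposited lists, and nearly equalled them when the lists were cut to equal numbers of peaks. The BT474R-only regions made up 6.10% of the merged regions and the BT474-only regions 18.9%, shares that the rule itself sets. When each list was cut to its 42604 highest-scoring peaks, the count of the smallest of the 4 HRG and 4 baseline lists, there were 5657 BT474R-only and 6351 BT474-only regions. The ratio of the counts moved from 0.322 to 0.891. Equal lists bring the counts closer by construction, and lower depth cannot be told apart from fewer open regions in BT474R. Of the original members, 3402 of the 3714 BT474R-only regions (91.6%) and 5768 of the 11537 BT474-only regions (50%) were still members in those equal lists. A 2 against 2 comparison of a single region cannot give an exact two-sided p below 0.333, so the 4 lists describe the members and test none of them.

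Members were mostly weak peaks. The score of a peak, the area under its significance curve, was at least 200 in every list, and the lower of a member's 2 scores was under 400 for 2925 BT474R-only regions (78.8%) and 8313 BT474-only regions (72.1%). As a rank within its own list, from 0 to 100 for the highest score, the median member stood at 24.3 in the BT474R-only and 23.7 in the BT474-only class, against 60.5 for regions open in all 4 lists. Among the 4388 regions ranked 90 or more, 4 were BT474R-only and 21 BT474-only. Members were also narrow, with a median of 375 bp and 381 bp against 718 bp for regions open in all 4 lists. These are widths of merged regions, which join peaks of 4 lists in the latter and of 2 lists in members. The part of merging in the gap was not tested.

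Most BT474R-only regions were open in BT474R, and few in BT474, in the conditions that had not chosen them. In the 16 other BT474R libraries that were neither baseline nor HRG 12 h, between 40.2% and 98.3% of them had a peak (median 89.0%), with the lowest values in the 12 h vehicle libraries at 40.2% and 73.1%. In the 16 corresponding BT474 libraries the range was 1.97% to 16.4% (median 5.70%), so the lines did not overlap. The numbers of libraries with a peak, out of 16 of each line, were compared region by region with a two-sided exact test (Fisher's), and the p-values were adjusted by the Benjamini-Hochberg method over all 60913 regions. The test called 3365 of the 3714 (90.6%) more often open in BT474R and 0 more often open in BT474. The background was 5778 of all regions (9.49%) called for BT474R. In 720 of the BT474R-only regions all 16 BT474R libraries and no BT474 library had a peak, and these had the smallest adjusted p found here, 7.51e-08. The treatments were done in duplicate in 1 clone and its parent line, so these p-values measure only the spread between these libraries.

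The BT474-only regions were less uniform across the libraries of the other line. They were open at 73.4% to 91.0% (median 81.1%) in the 16 other BT474 libraries and at 0.182% to 37.6% (median 19.3%) in the BT474R libraries, again without overlap. The lowest values came from the 4 BT474R vehicle and EGF libraries at 12 h, between 0.182% and 2.69%, and the highest from HRG at 1 h. The exact test called 8704 of the 11537 (75.4%) more often open in BT474, beside 10983 of all regions (18%), and called 5 the other way. Without the 12 h libraries of both lines, an alternative chosen after seeing the data, the same test called 55.2% of the BT474-only and 89.7% of the BT474R-only regions. With the 32479 highest-scoring peaks of every list the called shares were 81% and 84.8%, in the same order.

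**Figure D1:**
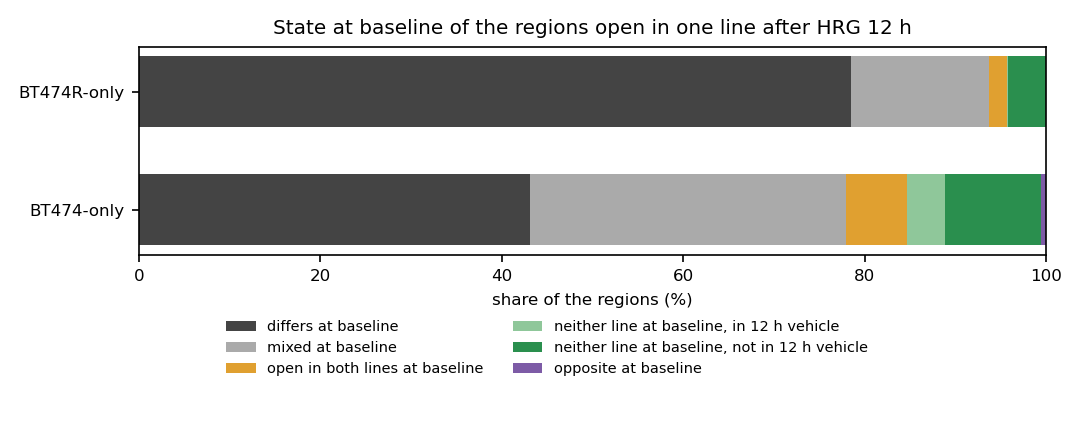
State at baseline of the BT474R-only (n = 3714) and BT474-only (n = 11537) regions, as a percentage of each class. Dark grey is the share that already differed in the same direction in 2 of 2 against 0 of 2 baseline lists, 78.5% and 43.1%, and dark green the share with no peak at baseline or in the 12 h vehicle lists of the line that held it, 4.12% and 10.6%.

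Most BT474R-only regions already differed before any ligand was given. At baseline 2917 of them (78.5%) were open in 2 of 2 BT474R and 0 of 2 BT474 lists, beside 5529 of all merged regions (9.08%). For the BT474-only class the corresponding number was 4974 (43.1%), beside 5900 of all regions (9.69%). In the equal lists of 42604 peaks the shares came closer, at 67.2% and 59.5%. The BT474R baseline lists differed from each other, with 53007 and 44546 peaks, and leaving out the first, an alternative chosen after seeing the data, raised the BT474-only share to 62.1%. A further 772 BT474-only regions (6.69%) were open in all 4 baseline lists, against 73 BT474R-only regions (1.97%), and 56 BT474-only regions went the opposite way at baseline while no BT474R-only region did. The 772 regions were open at a mean of 89.5% in BT474R after 1 h of vehicle, 10.9% after 12 h of vehicle and 34.6% after 24 h of vehicle. The 12 h value rests on libraries at 1.55% and 20.3%, with 32479 and 40331 peaks. Examples were an intergenic region nearest CYP4F8 (chr19:15588042-15589316), scoring 1795 and 1861 in HRG-BT474 and open in 4 of 16 other BT474R and 16 of 16 BT474 libraries (adjusted exact p = 0.000123), and a promoter region of SAMD4A, an RNA-binding regulator, scoring 1707 and 1733 but open in 11 of 16 BT474R libraries (adjusted exact p = 0.131).

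The same differences were then looked for in the 12 h vehicle lists, a comparison added after seeing the data. Those lists share the time in culture with the HRG lists but not the ligand. In BT474R they also held fewer peaks than the HRG lists, so ligand and list size cannot be told apart there. Of the BT474-only regions, 7852 (68.1%) were open in 2 of 2 BT474 and 0 of 2 BT474R vehicle lists, beside 11898 of all regions (19.5%). Of the BT474R-only regions, 1305 (35.1%) differed in their direction, beside 2018 of all regions (3.31%), and a further 1180 had a peak in 1 of 2 BT474R and no BT474 vehicle list. The BT474R vehicle lists held 32479 and 40331 peaks, and the part of their size in these shares was not tested.

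A smaller set had no peak before the ligand or with vehicle alone at 12 h. Of the BT474-only regions, 1220 (10.6%) had no peak in any baseline list or in the 12 h BT474 vehicle lists, and 153 BT474R-only regions (4.12%) had none at baseline or in the 12 h BT474R vehicle lists. In BT474 the 1220 regions were open at a mean of 49.1% after EGF for 1 h, 60.4% at 12 h and 62.3% at 24 h, and at 49.4% after HRG for 1 h and 62.4% at 24 h. The vehicle libraries of BT474, which at 12 h were part of the choice, stood at 13.2% at 1 h and 11.1% at 24 h. In BT474R the same regions were open at 14.5%, 4.18% and 34.8% after EGF for 1, 12 and 24 h and at 16.6% and 9.47% after HRG for 1 and 24 h, with vehicle at 8.77% at 1 h and 0.984% at 24 h. The HRG libraries at 24 h stood apart, at 14.6% and 4.34%, with 55289 and 44351 peaks. At 24 h both BT474R EGF libraries lay above both HRG libraries, and both EGF and HRG pairs above both vehicle libraries. Of the 1220, the exact test in the 32 other libraries called 299 (24.5%) for BT474, beside 18% of all regions, and 3 for BT474R. Of the 153 it called 123 (80.4%) for BT474R, beside 9.49% of all regions. The 32 include the 12 h vehicle libraries, where the choice itself left the own line without a peak. In equal lists only 244 of the 1220 (20%) and 114 of the 153 (74.5%) were still members.

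**Figure D2:**
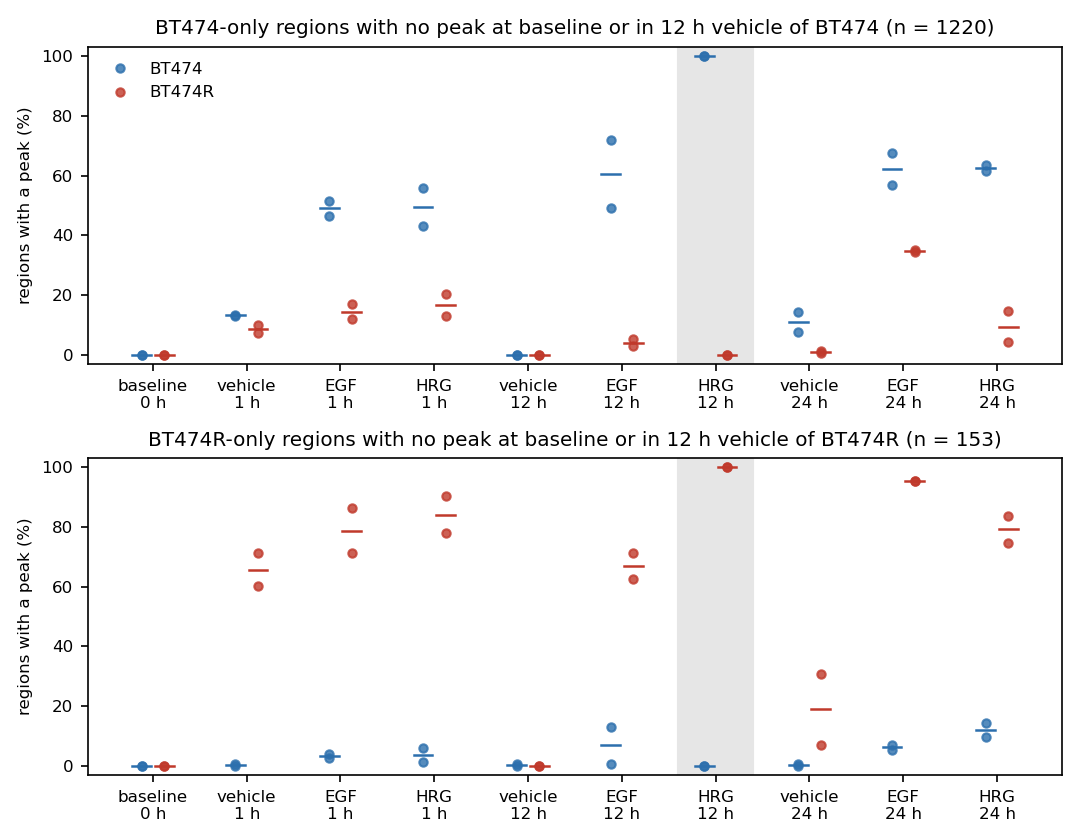
Percentage of the regions with no peak at baseline or in the 12 h vehicle lists of their line that had a peak in each library, for 1220 BT474-only (top) and 153 BT474R-only regions (bottom). Points are libraries and bars means of 2, and baseline, the 12 h vehicle of the own line and HRG 12 h (shaded) are fixed by the choice. In the top panel the BT474R EGF libraries at 24 h stood at a mean of 34.8%, above the HRG libraries at 9.47%. In the bottom panel 65.7% of the BT474R-only regions had a peak in BT474R after vehicle for 1 h.

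The 153 BT474R-only regions were open at 95.4% after EGF for 24 h and 79.1% after HRG for 24 h in BT474R, but also at 65.7% after 1 h of vehicle and at 7.19% and 30.7% in the libraries after 24 h of vehicle. In BT474 the group means outside HRG 12 h and baseline ranged from 0.327% after vehicle to 12.1% after 24 h of HRG. The highest-ranking of them, nearest MAP3K7 and printed above, scored 455 and 376 in HRG-BT474R and was open in 11 of 16 other BT474R and 1 of 16 BT474 libraries (adjusted exact p = 0.00334). The highest-ranking of the 1220, in an intron of NFATC2 (chr20:51446738-51447730), a calcium-regulated factor, scored 684 and 914 in HRG-BT474 and was open in 2 of 16 BT474R and 12 of 16 BT474 libraries (adjusted exact p = 0.00454). The member at the promoter of TRIM29, a ubiquitin ligase of epithelia, scored 791 and 627, but it was open in 7 and 11 of 16 libraries (adjusted exact p = 0.671).

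Motif content differed between the classes. The AP-1 motif, TGANTCA on either strand within 100 bp of the summit, was found in 15.7% of all merged regions, 14.3% of BT474R-only and 18.3% of BT474-only regions. In the members with no peak at baseline or in the 12 h vehicle lists of their line it was found in 52.8% of the 1220 BT474-only and 45.8% of the 153 BT474R-only regions, whereas the BT474-only regions open in both lines at baseline held it in 6.99%. Among the 244 of the 1220 that stayed members in equal lists the share was 68.9%. Outside promoters the AP-1 shares were 14.4% in BT474R-only, 21.4% in BT474-only and 20% in all regions. All motifs were searched on both strands, matches of different motifs could overlap, and a match describes the letters and says nothing of binding.

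The CTCF motif was rarest in the BT474R-only class. It was found in 7.21% of BT474-only and 1.91% of BT474R-only regions, against 5.50% of all merged regions, and in 5.36% and 1.88% of those that stayed members in equal lists. Among all members of the equal lists the shares were 5.75% and 2.72%, and with equal numbers in all 40 lists 4.92% and 2.31%, so the gap of 5.30 percentage points fell to 3.02 and 2.61. Outside promoters the shares were 7.50%, 1.86% and 5.95%. The highest-ranking BT474-only region with the motif outside promoters and exons, printed above, scored 1402 and 1527 in HRG-BT474 and was open in 0 of 16 other BT474R and 16 of 16 BT474 libraries (adjusted exact p = 7.51e-08). The C/EBP motif (TTGCNNAA) was found in 15.1% of BT474R-only, 10.0% of BT474-only and 10.5% of all regions, and the steroid receptor motif (ACANNNTGT) in 9.18%, 6.28% and 6.16%. The SP/KLF and ETS motifs (GGGGCGGGG and CCGGAAGT), common at promoters, were rarer in both classes (0.754% and 0.323% in BT474R-only, 3.31% and 0.485% in BT474-only) than in all regions (5.51% and 1.58%), and outside promoters the SP/KLF shares were 0.567%, 0.993% and 1.000% in the same order. Of the 22 motifs searched, those named here were chosen after their shares were seen.

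**Figure D3:**
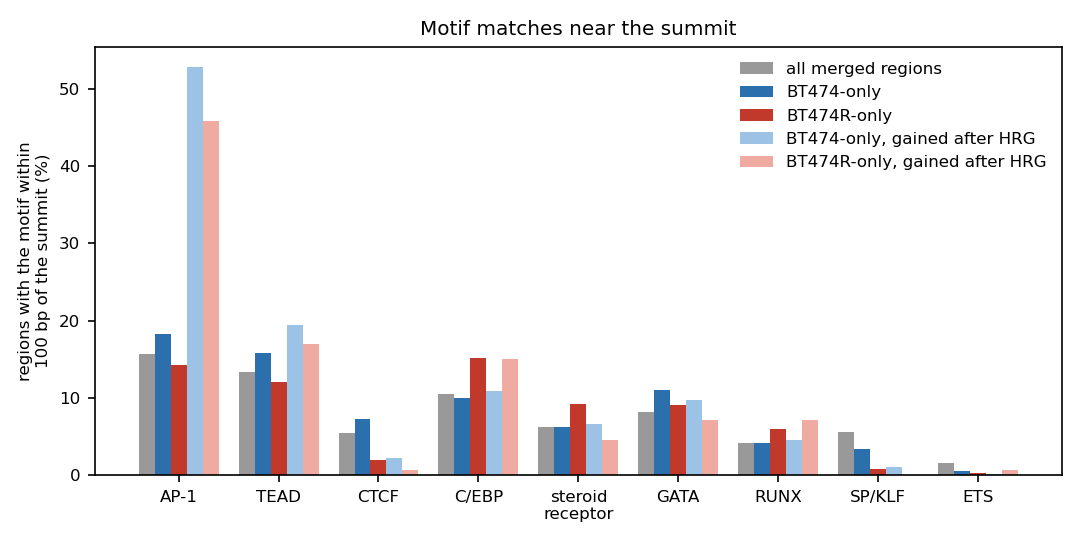
Percentage of regions with a motif match within 100 bp of the summit, for all merged regions (grey), BT474-only (blue), BT474R-only (red) and the members of each with no peak at baseline or in the 12 h vehicle lists of their line (light blue and light red). AP-1 stood at 52.8% and 45.8% in the light bars against 15.7% of all regions, and CTCF at 7.21% in BT474-only against 1.91% in BT474R-only regions.

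Promoters were a smaller part of the members than of other regions, and smallest in the BT474R-only class. A region within 1 kb of an annotated start made up 14.6% of BT474R-only (541 regions), 26.7% of BT474-only (3079) and 43.5% of the regions open in all 4 lists. Introns held 50.9% and 43.1% of the members and intergenic sequence 29.7% and 26.4%. The gap between the classes, 12.1 percentage points, was 16.2 in equal lists but 2.76 when peaks were trimmed to 400 bp around the summit. Of 13351 protein-coding genes with any merged region at a start, 183 (1.37%) had a BT474R-only and 1878 (14.1%) a BT474-only promoter region, and 1115 had a BT474-only one in equal lists.

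The HER family showed opposite members in the lines. All 3 regions nearest ERBB4, which encodes the heregulin receptor HER4, were BT474-only. One promoter region (chr2:212537323-212538157) scored 815 and 738 in HRG-BT474, and the other (chr2:212538624-212539487) scored 393 and 403. Both were open in 16 of 16 other BT474 libraries, and in 6 and 0 of 16 BT474R libraries (adjusted exact p = 0.00134 and 7.51e-08). The first had a peak in both BT474R libraries after 1 h of vehicle and 24 h of EGF, and in 1 of 2 after 24 h of vehicle and of HRG. All 3 regions nearest ERBB3, the gene of HER3, and 4 of the 5 nearest ERBB2 were open in all 4 lists.

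EGFR, which encodes the EGF receptor, held 6 BT474R-only regions and 1 BT474-only region among 18, with 10 open in all 4 lists. The 6 lay within the gene, and all were BT474R-only at baseline too, as were 78.5% of the whole BT474R-only class. The highest (chr7:55129346-55130315, printed above) scored 1267 and 1239 and was open in 16 of 16 other BT474R and 2 of 16 BT474 libraries (adjusted exact p = 5.80e-06). The pair nearest the first start (chr7:55024234-55024770 and chr7:55031092-55031571) scored 563 and 518, and 622 and 534, and each was open in 16 and 0 libraries (adjusted exact p = 7.51e-08). The remaining 3 were called in the same direction, as were 90.6% of all BT474R-only regions.

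Among the 11 genes of ERBB ligands, 7 had a merged region at a start, and 3 of these had a BT474-only one (42.9% against 14.1% of all genes). Of the 7, 5 had a region at a start open in all 4 lists. The promoter of BTC, which encodes betacellulin, scored 649 and 697 in HRG-BT474 and was open in 0 of 16 BT474R and 16 of 16 BT474 libraries (adjusted exact p = 7.51e-08). NRG2, a neuregulin gene, had 3 BT474-only promoter regions, of which the strongest (chr5:140042614-140043722) scored 926 and 880 and was open in 3 and 16 libraries (adjusted exact p = 2.95e-05), while the weakest scored 284 and 211 and did not pass (adjusted exact p = 0.131). EPGN, the gene of epigen, scored 302 and 317 (adjusted exact p = 0.0414), and it was not a member in equal lists. An intronic region of EREG, the epiregulin gene (chr4:74374458-74375507), scored 1202 and 1357 and was open in 4 and 16 libraries (adjusted exact p = 0.000123).

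Of 30 genes of the ERBB adaptors and the PI3K-AKT-mTOR pathway, all had a region at a start, 26 of them open in all 4 lists, and 5 also had a BT474-only one (16.7%, near the 14.1% of all coding genes). IRS1, an adaptor of insulin and IGF receptors, scored 887 and 1233 in HRG-BT474 and was open in 6 and 16 other libraries (adjusted exact p = 0.00134). SGK1, a kinase related to AKT, scored 509 and 439 and was open in 0 and 16 (adjusted exact p = 7.51e-08). The regions of RHEB, the activator of mTOR complex 1, and AKT2 passed as well (adjusted exact p = 0.000432 and 0.000283), and that of GAB2 did not (11 and 16 libraries, adjusted exact p = 0.131). No gene of this list had a BT474R-only promoter, as for nearly all coding genes, of which 1.37% had one.

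Receptor kinases outside the HER family that are known as bypass routes in resistance held members of both classes. Of 18 with a region at a start, 6 had a BT474-only one (33.3%, against 14.1% of all coding genes) and none a BT474R-only one (1.37% of all). At 13 of the 18 a region at a start was open in all 4 lists. Of the 128 regions nearest these genes, 27 were BT474-only (21.1%, against 18.1% for all coding genes) and 11 were BT474R-only (8.59%, against 5.66%). FGFR3, a fibroblast growth factor receptor gene, had 5 BT474R-only regions among 10, and it is named here after its values were seen. Those 5 all passed the test, as did 90.6% of all BT474R-only regions. The stronger IGF1R promoter region scored 668 and 600 and was open in 6 and 16 libraries (adjusted exact p = 0.00134), INSR scored 353 and 357 and was open in 0 and 16 (adjusted exact p = 7.51e-08), and AXL scored 294 and 260 and was open in 0 and 15 (adjusted exact p = 8.24e-07). TYRO3 and PDGFRB also passed (adjusted exact p = 0.00454 and 0.00134), and EPHA2 did not (12 and 16 libraries, adjusted exact p = 0.274). AXL and PDGFRB were not members in equal lists.

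Estrogen receptor and luminal genes also held BT474-only promoter regions, in 5 of 20 steroid receptor and response genes (25%) and 5 of 18 luminal lineage factors (27.8%), against 14.1% of all coding genes, with ESR1 in both lists. The stronger of its pair of promoter regions (chr6:151807133-151808650) scored 1004 and 1006 and was open in 2 and 16 libraries (adjusted exact p = 5.80e-06). CA12, an estrogen-responsive carbonic anhydrase gene, scored 1030 and 1023 and was open in 0 and 16 (adjusted exact p = 7.51e-08), and GREB1, an ESR1 cofactor, scored 427 and 519 and was open in 1 and 16 (adjusted exact p = 8.24e-07). At ESR1, GATA3, TRPS1, MYB and EHF each promoter member was an additional region near a start, since all 18 lineage factors also had a promoter region open in all 4 lists. Of the 20 steroid receptor and response genes, 17 had one. The promoter members of EHF, GATA3, RARA and UGT2B15 were not members in equal lists.

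BT474R-only promoters were found in 2 lists alone, as CA9 among 31 glycolysis and hypoxia genes with a region at a start, and HOXB3, LHX4 and SOX2 among 37 homeobox and related developmental genes. The shares were 3.23% and 8.11%, beside 1.37% of all coding genes. CA9, a hypoxia-induced carbonic anhydrase gene (chr9:35673306-35674014), scored 419 and 448 in HRG-BT474R and was open in 10 of 16 other BT474R and 0 of 16 BT474 libraries (adjusted exact p = 0.00134), with a peak in 1 of 2 baseline BT474R lists. HOXB3 scored 321 and 327 and was open in 16 and 1 libraries (adjusted exact p = 8.24e-07), SOX2 scored 267 and 239 and was open in 14 and 1 (adjusted exact p = 6.01e-05), and LHX4 scored 252 and 230 and was open in 12 and 1 (adjusted exact p = 0.00106). The same lists held 7 and 6 genes with BT474-only promoters (22.6% and 16.2%, the second near the 14.1% of all coding genes). In these lists 28 of the 31 and 33 of the 37 genes had a region at a start open in all 4 lists. VEGFA, which encodes a vascular growth factor, had a BT474-only promoter region that scored 1854 and 1904. It was open in 10 of 16 BT474R libraries (adjusted exact p = 0.0594).

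In the remaining lists BT474-only promoters were found in 7 of 21 mucin, syndecan and HER2 surface partner genes, 6 of 24 lipid synthesis genes, 4 of 15 NF-kB and chemokine genes, 4 of 24 interferon and antigen processing genes, 3 of 23 immediate early and AP-1 genes, 2 of 21 epithelial-mesenchymal genes, 2 of 20 integrin and laminin genes and 1 of 18 ERK feedback genes. In the same order, 20, 24, 13, 20, 23, 19, 16 and 16 of these genes had a region at a start open in all 4 lists. The BT474-only promoter regions of the lipid synthesis and immediate early genes were thus additional ones. Against 14.1% of all coding genes, the interferon (16.7%) and immediate early (13%) lists were near the background and the epithelial-mesenchymal (9.52%), integrin (10%) and ERK feedback (5.56%) lists below it. ISG15, an interferon-induced modifier, scored 383 and 364 and was open in 0 and 16 libraries (adjusted exact p = 7.51e-08), and MUC1, a membrane mucin, scored 370 and 625 and was open in 2 and 16 (adjusted exact p = 5.80e-06). IL6, a cytokine gene, scored 450 and 384 and was open in 4 and 16 (adjusted exact p = 0.000123). The FASN member, at the fatty acid synthase gene, scored 327 and 258 and was open in 7 BT474R and 3 BT474 libraries (adjusted exact p = 0.602), and of the 3 immediate early genes, FOSL2 and MAFK had no region that passed, and EGR3 had 1 of a pair. The 9 keratin and 17 G1 cell cycle genes with a region at a start had no member there.

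By the number of members nearest to a gene within 100 kb, ABTB3 led the BT474R-only class with 8 of its 12 regions. Of those 8, 7 passed. ARHGEF4 and EPAS1 followed with 7 of 16 each and MAD1L1 with 7 of 23. Of all regions assigned to coding genes, 5.66% were BT474R-only. ARHGEF4 and EPAS1 also held 1 BT474-only region each. EGFR, with 6 of 18, and CD24, with 6 of 16, were among 9 genes with 6. The order depends on the distance: with assignment within 10 kb, TCF20 and YPEL2 led with 4 each and ARHGEF4 had 3, and in the BT474-only class NDST1 and SH3BP4 led with 7 each, with none of the 6 BT474-only genes named below among the first 25. At EPAS1, which encodes the hypoxia factor HIF-2α, the highest members scored 639 and 661 (chr2:46286485-46287105) and 636 and 699 (chr2:46335663-46336435), were open in 16 and 2 and in 16 and 0 other libraries, and all 7 passed the test. MAD1L1 encodes a spindle checkpoint protein, and its 7 members passed too, 6 of them BT474R-only at baseline. In the whole BT474R-only class 90.6% passed and 78.5% were BT474R-only at baseline, so these counts are near those of any members. In the BT474-only class KALRN had 14 of 32 regions and PREX1 14 of 39, IGF1R 13 of 28 and TSHZ2 13 of 27, and SULF2 12 of 35 and ZMYND8 12 of 39, where 18.1% of all regions assigned to coding genes were BT474-only. The regions of PREX1, TSHZ2, SULF2 and ZMYND8 lie in 1 stretch of chromosome 20 (chr20:47204362-53521895), and copy number was not analysed. Of the 14 at PREX1 13 passed, and the strongest (chr20:48864246-48865423) scored 1638 and 1764 and was open in 0 and 16 libraries (adjusted exact p = 7.51e-08). At ZMYND8 7 of 12 passed, and in the whole BT474-only class 75.4% did.

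The highest-ranking members at protein-coding starts had higher scores in the BT474-only class, which held 3079 promoter regions against 541. The median peak scored 592 and 595 in the HRG-BT474 lists and 519 and 507 in the HRG-BT474R lists. Raw scores of the lines are therefore not on 1 scale. MAP1LC3A, which encodes the autophagy protein LC3A, led with scores of 3909 and 3962 in HRG-BT474 (chr20:34557834-34559910), followed by SLCO4A1, a transporter gene, with 2513 and 2451, and the start shared by MFSD1 and RARRES1 with 2447 and 2349. They were open in 0, 1 and 1 of 16 other BT474R libraries and in 16 of 16 BT474 libraries each. Among the 10 named by rank, TBC1D30 alone was open in more than 1 of the BT474R libraries, at 7 of 16. The BT474R-only promoters were led by PHLDB3 with 1195 and 1186, ACAP3 with 1114 and 1225 and ATP13A4 with 1197 and 1046 in HRG-BT474R, and included CEACAM6, an adhesion gene, with 974 and 976. All 10 were open in 16 of 16 other BT474R libraries and in 0 to 3 BT474 libraries.

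Near annotated starts with no protein-coding gene start within 1 kb, a BT474R-only member near TEX14 scored 3272 and 3272, and a BT474-only member nearest TNFRSF19 scored 2686 and 2819. Away from starts, the region nearest ARHGEF4 printed above was the highest BT474R-only member, with scores of 3088 and 3108, and a member nearest POU2F2 (chr19:42199267-42200149), in an exon, scored 2011 and 1934. The distal BT474-only members were led by a region nearest OPA1 (chr3:193870346-193871456, 203 kb away) with 2971 and 2941, which was open in 6 of 16 BT474R libraries (adjusted exact p = 0.00134), and by the TSHZ2 region printed above with 2524 and 2839. The members nearest RRN3 and GOLGA6L6 lie in families of near-identical copies, where the placing of reads is uncertain.

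**Figure D4:**
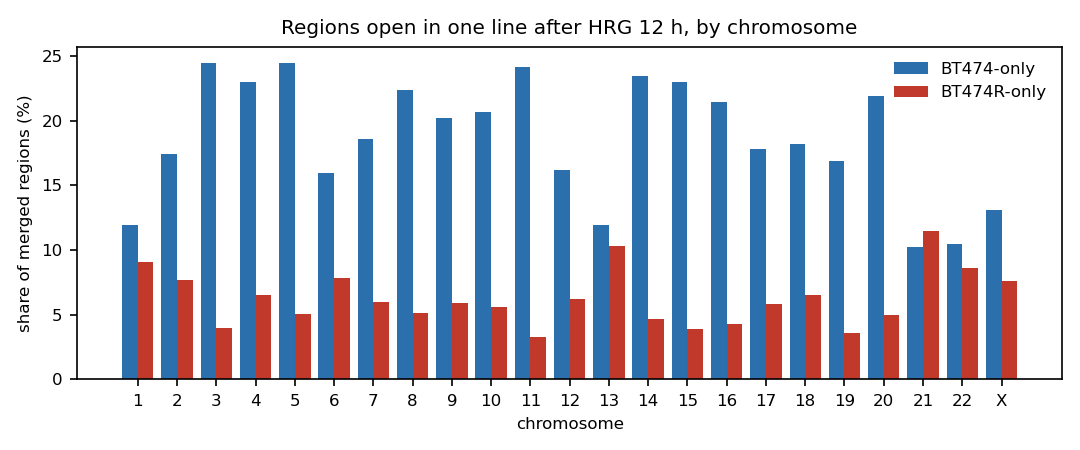
Share of the merged regions of each chromosome that were BT474-only (blue) or BT474R-only (red) after HRG 12 h. Blue bars range from 10.2% on chromosome 21 to 24.5% on chromosomes 3 and 5, and red bars from 3.28% on chromosome 11 to 11.5% on chromosome 21, the only chromosome where red is above blue.

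Members were spread unevenly over the genome. BT474-only regions made up 24.5% of the merged regions of chromosomes 3 and 5 and 24.2% of chromosome 11, but 10.2% of chromosome 21, 10.5% of chromosome 22 and 11.9% of chromosomes 1 and 13. BT474R-only regions went from 3.28% on chromosome 11 to 11.5% on chromosome 21. Among 552 windows of 5 Mb with at least 20 merged regions, the median BT474-only share was 19.3% and the highest 59.1%, on chromosome 5 (100000001 to 105000000), with 13 of 22 regions, followed by the next window of the same chromosome with 18 of 32 (56.2%) and, at an equal share, chr4:160000001-165000000 with 15 of 27 and chr4:170000001-175000000 with 20 of 36 (55.6%). No BT474R-only region lay in these 4 windows, which held 7, 12, 7 and 12 regions open in all 4 lists. The BT474R-only share was highest on chr6:65000001-70000000 with 5 of 21 (23.8%), chr4:40000001-45000000 with 22 of 97 (22.7%) and chr2:15000001-20000000 with 20 of 98 (20.4%). The longest runs of neighbouring members were BT474-only, with 13 in a row over 1259 kb near ABCA13 (chr7:48140113-49399074), 12 over 448 kb at COL22A1 and 11 over 864 kb at PTPRM (chr18:7637373-8501565). None of those 11 had a peak in any of the 16 other BT474R libraries, and all 11 passed the test, beside 75.4% of all BT474-only regions. The longest BT474R-only run was 5 members over 65.4 kb at ELMO1, all of which passed, as did 90.6% of all BT474R-only regions. Of the 20 regions assigned to ELMO1 within 100 kb, 6 were BT474R-only and 5 BT474-only.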

How the data were processed

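ATAC-seq was done in 40 libraries, of which the 4 HRG 12 h lists chose the members, the 4 baseline lists described them and the 32 others tested them. The study's methods state that the authors trimmed reads with Trim Galore (0.6.6 in the submitters' processing notes, which also name FastQC), mapped them to GRCh38 with BBMap and called peaks per library with Genrich, removing mitochondrial and blacklisted reads. No options of Genrich were given in the sources used. The deposited signal is the area under the significance curve of each peak, at least 200 in every list, with a −log10 p and −log10 q from the authors. Scores were ranked within a list only, and read counts were not analysed here.

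Files matched GRCh38, with 0 peaks past a chromosome end, and genes came from GENCODE 44. Fisher's exact test, two-sided, compared 16 with 16 libraries, with Benjamini-Hochberg adjustment and a threshold of 0.05. The code was tested on simulated data. Groups came from the sample labels. The alternatives were a score of at least 400, equal numbers of top peaks, peaks trimmed to 400 bp, 50% cover, each list left out, other library sets, stratified tests, 3 kb promoters, 250 bp motif windows and 10 kb gene assignment.

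Genes were named if in the 20 lists with a member within 1 kb of a start, by the highest mean rank of members (10 at coding starts and 10 distal per direction, and 5 per baseline state), and by the number of members within 100 kb (5 genes per direction), with 3 windows of 5 Mb per direction. Members, lists and tests were chosen with earlier results of these data known. Python 3.11.15, pandas 2.3.3, scipy 1.17.1 and pysam 0.24.0 were used.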

Additional observations from a re-analysis of the deposited data

Results flagged for a closer look

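At 10 of the BT474R-only regions the presence of a peak after HRG and after vehicle at 12 h went opposite ways in the lines. Each had a peak in both HRG and neither vehicle list of BT474R, and in both vehicle and neither HRG list of BT474. The difference was not tested. No region did the reverse. The BT474R vehicle lists at 12 h held 32479 and 40331 peaks and the BT474R HRG lists 45808 and 42604. The part of list size in the pattern was not tested. All of the 10 regions but the one nearest SLC6A19 had a peak in both BT474R baseline lists. Mean score ranks of the 10 lay between 1.48 and 18.7 on the scale from 0 to 100, and none passed the exact test between lines in the 32 other libraries. That result says little, since the 32 include the 12 h vehicle libraries. The choice itself left those without a peak in BT474R and with one in BT474. The 10 included an intronic region nearest RUNX1, open in 11 other BT474R and 4 other BT474 libraries, and an intronic region nearest NR3C2, open in 9 and 13. These counts hold the same 12 h vehicle libraries.

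Sequences other than chromosomes 1 to 22 and X, which the comparison did not use, held 26 to 34 peaks in the 4 HRG 12 h lists.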

How the results depend on the processing

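Of 96 counts of members and calls recomputed under alternatives, 85 stayed within 1.5 times the reported value. With a peak score of at least 400 there were 2003 BT474R-only regions, of which 1523 also differed at baseline and 1824 were called in the 32 other libraries, and 3146 regions were called for BT474R in all. With equal numbers of top peaks in the 8 lists the members were 5657 and 6351. With equal numbers in all 40 lists there were 4881 BT474-only regions, of which 2821 also differed at baseline and 3956 were called, and 5473 regions were called for BT474 in all. Without the 12 h libraries, chosen after seeing the data, 7246 regions were called for BT474. Fewer peaks or fewer libraries entered each of these by construction.

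Leaving out 1 HRG 12 h list at a time gave 4178 to 5325 BT474R-only and 12100 to 14023 BT474-only regions, with 3613 to 4295 and 8857 to 9528 of them called, and 4927 to 5769 and 10498 to 10984 regions called in all. Members that also differed at baseline numbered 2954 to 3637 and 5010 to 7168 when any HRG 12 h or baseline list was left out, the highest BT474-only value without the first BT474R baseline list. Leaving out a list loosens the rule, so the numbers of members rose by construction, and their ranges do not measure stability.

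With the replicate number as a block, 5788 and 11018 regions were called. The labels give only a replicate number, and whether libraries of the same number shared a batch is not known. The correlation of replicate differences between lines lay between -0.00815 and 0.0699 in the 10 conditions.

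For 145 named regions, 1694 of 1804 values kept direction and call. With peaks trimmed to 400 bp the difference in open libraries reversed for the regions of NDRG1 (-25.0 percentage points), FOSL2 (6.25) and SAMD4A (43.8), and the cause was not tested. Depth was not known, so a missing peak may be an open region below the threshold.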
